A study of Mus musculus with 14 samples.

Results

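Of 177577 regions of accessible chromatin, 2050 (1.15%) were open in the mouse small cell lung cancer line 1398M1 and closed in the other 6 lines of the series. They were found by merging the peaks of all 14 libraries on chromosomes 1 to 19 and X wherever they overlapped by 1 bp. A region counted as open in a line with a peak in both of its libraries, and as closed with a peak in neither. The 2050 regions made up 3.51% of the 58459 regions open in 1398M1. The regions were thus chosen by peak presence in these same libraries, so the counts are descriptions and no test of presence was made.

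The series measured accessible chromatin by ATAC-seq, in which a transposase cuts and tags open DNA, in 7 lines with 2 libraries each. Line 1398M1 came from a liver metastasis and is labelled RPR2;Nfibf/f. The lines set against it were 1399M4 (liver metastasis, RPR2;Nfibf/f), 1398P2 and 1399P1 (lung tumors, RPR2;Nfibf/f), 1373M1 (liver metastasis, RPR2), and 12N1G and N2N1G (lymph node metastases, RPR2). All 7 lines thus carry RPR2, the field's short name for a model in which Trp53 and the retinoblastoma family genes Rb1 and Rbl2 are deleted. Nfibf/f names a conditional allele of the transcription factor gene Nfib. The labels name neither the Cre driver nor the reason why 1398M1 and 1398P2 share a number. Each line has no replicate line, so what belongs to 1398M1 as a line cannot be told apart from what belongs to its animal. Line 1399M4 carries the same genotype and tumor site labels as 1398M1, and by the rule these regions are closed in it. The part of genotype and tumor site was not tested.

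Small cell lung cancer is a high-grade tumor of neuroendocrine character whose cells express genes of secretory granules and synapses. Accessible promoters tend to be shared between related cells, while accessible regions far from promoters, many of them enhancers, differ more between cell types and between tumors of a type. A peak list records where tagging was enriched over the local background of a library, so a region without a peak may still be accessible below the depth of that library.

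Peaks numbered 67712 and 75733 in the libraries of 1398M1, and 64975 to 84199 in 11 of the other 12. Replicate 2 of 1398P2 stood apart with 33519. The floor, the lowest local background of a library and a measure of its depth, was 0.752 and 0.988 fragments per bp in 1398M1, against 0.632 to 1.13 in those 11 and 0.507 in replicate 2 of 1398P2. Peaks stood at a gene end in both 1398M1 libraries for 10 of 12 neuroendocrine markers, among them Insm1, Chga and Dll3. They did so for 1 of 8 hepatocyte markers (Apoa1), 0 of 5 lymphoid or myeloid markers, 1 of 3 endothelial markers (Kdr) and 1 of 3 fibroblast markers (Col1a1). These markers are part of longer gene lists used further on. In those, the counts were 18 of 21 neuroendocrine, 3 of 16 hepatocyte, 7 of 20 lymphoid and myeloid, and 4 of 18 endothelial and fibroblast genes. Lung epithelium genes had 10 of 20, and the Notch and YAP list and the epithelial and mesenchymal list 17 of 18 each. Of all 21627 protein-coding genes, 13806 had a region open in 1398M1 within 1 kb of an end.

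Few of the 2050 regions lay at promoters. Those found with the promoter windows at hand are shown first. Promoter windows were the 250 bases before an annotated start of a protein-coding gene. They covered 17250 genes, fewer than the 21627 protein-coding genes used elsewhere, and not every chromosome had them. A region at a start without a window could not be counted here, so the numbers below are not over all promoters. Of 21019 such windows, 12633 overlapped a region open in 1398M1 and 12 overlapped a region open only there. The 12 belonged to Necab3, Birc7, Wdr49, Gm12880, Gm1096, Ctbp2, Igf2, Ssbp4, Cdh12, Rtp2, Slc22a2 and 6030498E09Rik. The 6 printed here were covered over at least 88% of the window and lay outside the 2 densest clusters described further on. The sequences come from RefSeq on GRCm38.p6, run 5′ to 3′ on the strand of the gene and end at the base before its start. Capitals mark matches on either strand to 6 motifs: the GC box bound by SP and KLF factors (GGGCGG), the CCAAT box (CCAAT), the TEAD motif (GGAATG), a forkhead motif (TGTTTAC), an NFI motif for 1 arm of its palindrome (TTGGCA) and an E-box, the general site of bHLH factors (CAGCTG). None of the 28 matches to these motifs in the 12 windows overlapped its neighbour.

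Necab3 (chr2:154558855-154559104, minus strand): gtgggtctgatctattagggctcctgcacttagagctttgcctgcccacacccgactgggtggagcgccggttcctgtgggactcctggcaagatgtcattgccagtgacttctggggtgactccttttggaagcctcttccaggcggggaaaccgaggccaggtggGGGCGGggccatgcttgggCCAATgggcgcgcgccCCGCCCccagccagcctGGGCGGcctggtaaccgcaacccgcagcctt
Igf2 (chr7:142666817-142667066, minus strand): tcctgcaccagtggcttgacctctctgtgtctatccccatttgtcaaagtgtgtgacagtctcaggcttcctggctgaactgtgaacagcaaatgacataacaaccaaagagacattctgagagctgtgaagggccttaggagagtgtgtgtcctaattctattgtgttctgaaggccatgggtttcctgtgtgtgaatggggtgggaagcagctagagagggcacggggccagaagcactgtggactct
Slc22a2 (chr17:12583939-12584188, plus strand): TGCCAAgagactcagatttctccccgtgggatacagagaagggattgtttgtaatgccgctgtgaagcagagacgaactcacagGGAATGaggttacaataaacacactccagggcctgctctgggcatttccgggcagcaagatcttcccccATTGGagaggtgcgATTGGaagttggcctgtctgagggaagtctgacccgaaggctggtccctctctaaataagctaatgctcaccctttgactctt
Birc7 (chr2:180928773-180929022, plus strand): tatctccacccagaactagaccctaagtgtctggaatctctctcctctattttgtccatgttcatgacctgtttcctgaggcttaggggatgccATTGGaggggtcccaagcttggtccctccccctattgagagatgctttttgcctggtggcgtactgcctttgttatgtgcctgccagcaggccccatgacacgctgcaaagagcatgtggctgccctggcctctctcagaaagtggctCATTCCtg
Ctbp2 (chr7:133081861-133082110, minus strand): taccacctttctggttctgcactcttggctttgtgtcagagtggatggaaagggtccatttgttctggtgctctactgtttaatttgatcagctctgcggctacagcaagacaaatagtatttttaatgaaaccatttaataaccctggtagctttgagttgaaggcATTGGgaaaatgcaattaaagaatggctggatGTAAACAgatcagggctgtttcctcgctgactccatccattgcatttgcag
Cdh12 (chr15:21111202-21111451, plus strand): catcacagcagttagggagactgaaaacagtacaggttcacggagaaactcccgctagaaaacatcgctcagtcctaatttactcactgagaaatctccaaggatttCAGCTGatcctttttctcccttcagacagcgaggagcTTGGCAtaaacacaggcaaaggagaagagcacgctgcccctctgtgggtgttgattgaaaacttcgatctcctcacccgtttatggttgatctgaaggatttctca

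Necab3, a calcium-binding protein gene, had the best ranked region of these 6, at chr2:154558386-154559232, with 27 and 32 overlapping fragments at the summit in replicates 1 and 2 of 1398M1. Its window had 3 GC boxes and 1 CCAAT box and a GC content of 65.6%. The window of Igf2, a fetal growth factor gene, held none of the 6 motifs, and its region (chr7:142666794-142667126) had 12 and 19 fragments. The region at Slc22a2, an organic cation transporter of the kidney, had 7 and 10 fragments, and that at Birc7, an inhibitor of apoptosis, had 10 and 10. Ctbp2, a transcriptional corepressor, had 13 and 17 fragments at an annotated start, and Cdh12, a cadherin of neurons, had 5 and 10.

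Over the 12 windows the median GC content was 51.0%, with a range of 30.4% to 68.4%, against a median of 55.6% over all 21019. The median number of CpG dinucleotides was 4.5, against 10. The GC box occurred in 2 of the 12 windows (16.7%), against 43.0% of all windows, and the CCAAT box in 7 (58.3%), against 35.6%. The TEAD motif occurred in 3 (25%, against 11.6%), the forkhead motif in 2 (16.7%, against 2.64%), the NFI motif in 2 (16.7%, against 11.4%) and the E-box in 1 (8.33%, against 12.2%). The AP-1 motif (TGANTCA) was found in 0 of 12, against 6.18% of all windows. Matches were counted over the whole window, while the region covered only 2.8% of the window of Wdr49 and 18% of that of Ssbp4. The forkhead match of Wdr49 lay outside its region. So did the GC box and CCAAT matches of Ssbp4 and the TEAD match of Birc7. With 12 windows these shares describe the windows only, and a match is a string of letters, not a bound site.

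Compared with other open chromatin, the regions open only in 1398M1 lay less often at gene ends and inside genes, and more often far from any gene. Within 1 kb of either end of a protein-coding gene lay 56 of 2050 (2.73%, 95% exact binomial interval 2.07% to 3.53%), against 23.1% of all regions open in 1398M1 and 55.2% of the 17795 regions open in all 7 lines. Of the 1960 on chromosomes with annotated starts, 63 (3.21%) lay within 1 kb of a start. Inside a protein-coding gene lay 975 (47.6%, interval 45.4% to 49.7%), against 61.5% of all regions open in 1398M1. More than 100 kb from any protein-coding gene lay 451 (22.0%, interval 20.2% to 23.9%), against 10.3%. The intervals cover counting error only.

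The other liver metastasis lines gave a similar pattern for their own line-specific regions, with differences in size. At a gene end lay 2.73% of the 1398M1-only regions, against 3.78% of the 3357 open only in 1373M1 and 3.76% of the 7100 open only in 1399M4, and the interval of 1398M1 overlapped those of both lines. Inside a gene lay 47.6% in 1398M1, against 53.4% in 1373M1 and 55.8% in 1399M4, with intervals that did not overlap that of 1398M1. Over 100 kb from a gene lay 22.0% in 1398M1, against 17.9% in 1373M1 and 14.2% in 1399M4, again without overlap with 1398M1. The share far from genes was thus higher in the set of 1398M1 than in those of these 2 lines. No line has a replicate line, so the intervals do not measure differences between lines, and these were not tested.

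**Figure D1:**
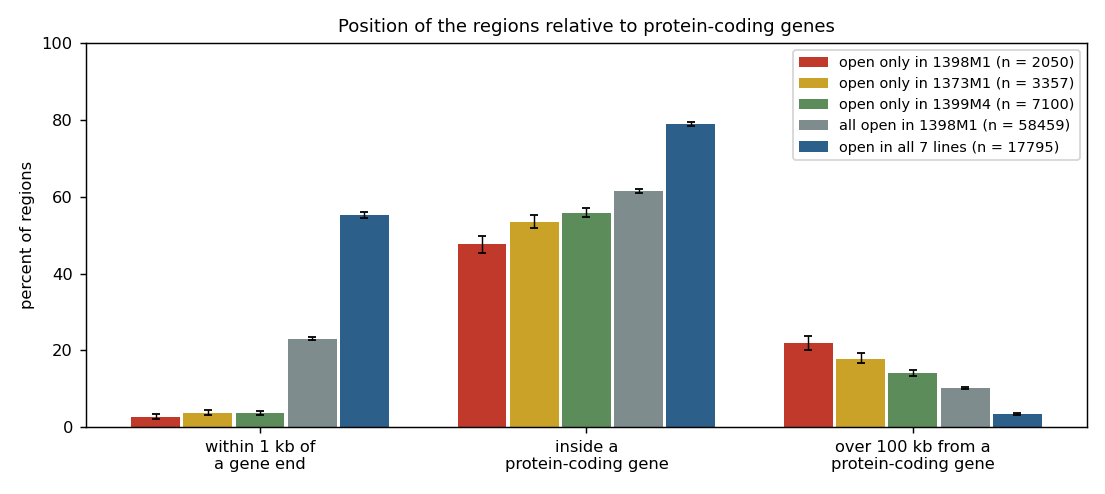
Percent of regions (vertical axis) within 1 kb of a gene end, inside a protein-coding gene and over 100 kb from a protein-coding gene, for 5 sets of regions, with 95% exact binomial intervals as error bars. The regions open only in 1398M1 stand lowest at gene ends (2.73%) and inside genes (47.6%), and highest far from genes (22.0%).

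The peaks in these regions were weak for their library. Fold enrichment, the authors' ratio of fragments at the summit to the local background, was ranked within each library, so that the strongest peak has a percentile of 100. The median percentile was 27.4 in replicate 1 and 34.4 in replicate 2, against 56.4 and 60.8 over all regions open in 1398M1 and 81.3 and 83.2 over regions open in all 7 lines. The median summit had 11 and 13 overlapping fragments, against 22 and 27 over all open regions and 57 and 75 over those open in all lines. Median peak width was 281 and 357 bp, against 462 and 558 bp over all open regions. Both libraries ranked 249 of the 2050 (12.1%) in their upper 50 percent, and 3 in their upper 10 percent.

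**Figure D2:**
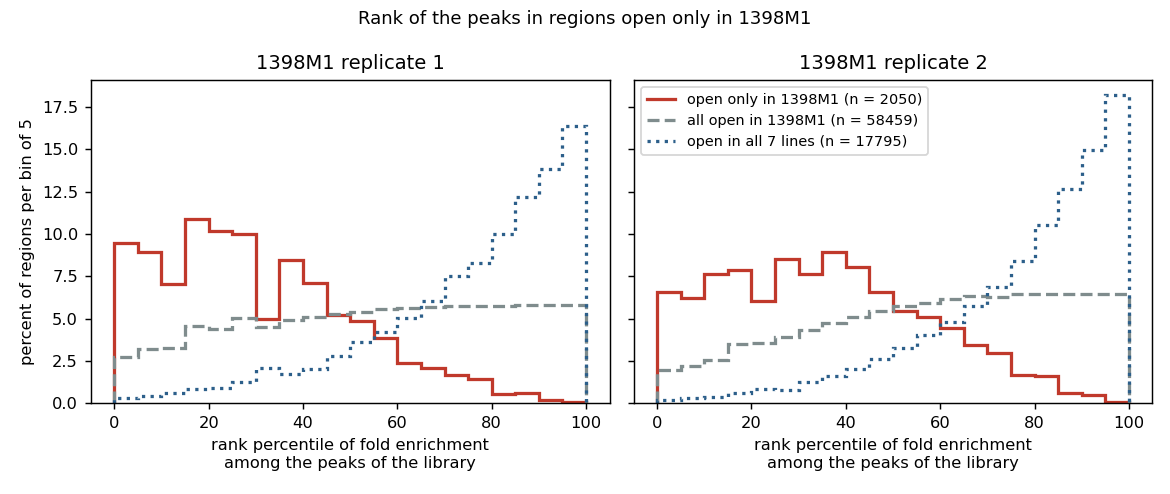
Percent of regions per bin of 5 percentile points (vertical axis) by rank percentile of fold enrichment (horizontal axis) in the 2 libraries of 1398M1, for regions open only in 1398M1, all regions open in 1398M1 and regions open in all 7 lines. The regions open only in 1398M1 lie mostly in the lower part of both panels, with medians of 27.4 and 34.4.

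Membership depended on the depth of the lists. The fragments at the summit were scaled to the depth of each other library. They would have reached the smallest pileup called there at the floor in all 12 others for 1006 regions (49.1%). Without replicate 2 of 1398P2, they would have done so in all 11 for 1730 (84.4%). A local background above the floor would ask for more fragments, and these counts leave that out. With every list cut to the 33519 peaks of smallest p, 1122 regions met the rule, and 127 of the 2050 (6.20%) were among them. Taking replicate 2 of 1398M1 alone gave 6007 regions and taking replicate 1 alone gave 3490, since regions seen in 1 library of 1398M1 then also counted.

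Just outside the rule lay 1632 regions with a peak in both 1398M1 libraries and in exactly 1 of the 12 others. Of these, 678 had their extra peak in replicate 1 of 1398P2 and 7 in its shallow replicate 2. Just outside on the other side, 1440 regions had a peak in replicate 1 of 1398M1 alone of all 14 libraries and 3957 in replicate 2 alone. The median -log10 q, a measure of each peak's significance given by the authors, was 5.95 in replicate 1 and 7.22 in replicate 2 over all 2050. The medians were 6.74 and 8.05 for regions with 1 further library, and 3.83 and 3.10 for those seen in replicate 1 or replicate 2 alone. Percentiles of the 2 libraries of 1398M1 had a Spearman correlation of 0.623 over the 2050 regions, against 0.866 over the 58459 open regions. The median distance from these regions to the nearest region with a peak in another line was 4016 bp, and 154 (7.51%) lay within 500 bp of it. This distance was not measured for other sets of regions, so whether it is particular to these 2050 was not tested.

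The 3 regions ranked in the upper 10 percent of both libraries lay inside Nkain2 and far from Vrk2 and Triml1. The strongest was that in Nkain2, which encodes a membrane protein that binds a sodium pump subunit, at chr10:32440071-32440557. It had 53 fragments and a fold enrichment of 18.7 in replicate 1, and 63 fragments and 17.7 in replicate 2, at percentile 98.7 on average. The nearest peak of any other line was 65390 bp away. Nkain2 held 2 further 1398M1-only regions, so that 3 of its 7 regions open in 1398M1 were open only there. Apart from these 3, merged regions with a peak at Nkain2 numbered 5 and 7 in the 1398M1 libraries, within the 0 to 7 of the other 12.

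The second region, at chr11:26667232-26667598, lay 73220 bp from Vrk2, a kinase gene, and had 28 and 40 fragments at a mean percentile of 94.1. The third, at chr8:42704729-42705420, lay 424386 bp from its nearest protein-coding gene, Triml1, and had 30 and 33 fragments. Next in rank came regions 601169 bp from Apob, the lipoprotein gene of liver and gut, inside Lingo2, a neuronal membrane protein gene, and 587233 bp from Castor2, a regulator of the mTORC1 pathway. Of the 10 highest ranked regions, 2 lay inside a protein-coding gene, those of Nkain2 and Lingo2. The others of the 10 had as their nearest protein-coding genes Zbtb20 (213421 bp), Lypd10 (5392 bp), Pkdcc (335898 bp) and Tbl1x (130260 bp).

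Among protein-coding genes, 1022 of 21627 (4.73%) had at least 1 such region within the gene or 10 kb around it, or 5.98% of the 17097 with any region open in 1398M1. A region within 1 kb of a gene end was found at 59 genes (0.273%), and 49 genes (0.227%) had 3 or more. Genes with many of these regions were long: the median length was 578 kb for the 49, 106 kb for the 1022, and 20.9 kb for genes with open regions but none open only in 1398M1. The rule fixes these regions as present in 1398M1 and absent elsewhere, so the numbers per library at a gene are given for its other merged regions, without them. Those other regions still include any with a peak in only 1 library of 1398M1 and in no other line.

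Csmd1 had the most, 7 of its 21 regions open in 1398M1. It encodes a large complement-regulating membrane protein of the nervous system and spans 1643 kb (chr8:15892538-17535385). Other merged regions with a peak there numbered 15 and 24 in replicates 1 and 2 of 1398M1, 0 and 1 in 1373M1, 1 and 1 in 1398P2, 18 and 17 in 1399M4, 18 and 19 in 1399P1, 18 and 17 in 12N1G, and 17 and 17 in N2N1G. The 8 libraries of 1399M4, 1399P1, 12N1G and N2N1G thus lay above replicate 1 of 1398M1 and below replicate 2. The 4 libraries of 1373M1 and 1398P2 were nearly without peaks. All 7 lay inside the gene, at mean percentiles of 22.6 to 70.0.

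A further 6 genes had 5 each. Sema6d, a semaphorin that guides axons, had 27 and 28 other regions in the 1398M1 libraries, against 8 to 25 with a median of 15.5 in the other 12 libraries. Fat3, an atypical cadherin of neurons, had 21 and 19, against 4 to 31 with a median of 14.5. Fam155a, a subunit of the sodium leak channel, had 22 and 18, against 8 to 27 with a median of 18. Sema6d thus had more regions in both 1398M1 libraries than in every other library even without its 5, while at Fat3 (29 and 31) and Fam155a (24 and 27) both 1399M4 libraries had more. The lowest count at each of these 3 genes was that of replicate 2 of 1398P2, the library with the fewest peaks.

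The other 3 genes with 5 regions were rich in regions in most lines. Nrxn3, a presynaptic adhesion molecule, had 44 and 51 other regions, against 7 to 55 in the other libraries. Rbfox1, a splicing factor of neurons and muscle, had 32 and 46, against 6 to 52. Ptprt, a receptor phosphatase, had 43 and 43, against 12 to 44. All 3 lay within the range of the other libraries.

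Genes with 4 regions were Lrmda, Gm37013, Fto, Cadps2, Rbms3 and Tmem269. Fto, an RNA demethylase whose introns hold enhancers of Irx3, had 20 and 27 other regions in 1398M1, against 8 to 25 with a median of 17. A separate region, ranked at a mean percentile of 87.1, lay 65356 bp from Irx3 itself, at chr8:91867010-91867522. Lrmda, linked to melanocyte differentiation, had 26 and 35, against 9 to 39 with a median of 27. Cadps2, which primes dense-core vesicles for release, had 13 and 16, against 4 to 21 with a median of 11. Rbms3, an RNA-binding protein gene, had 25 and 29, against 9 to 26. Gm37013 is a model that spans the protocadherin alpha and beta genes on chromosome 18, so its 4 regions cannot be given to 1 gene of that cluster. App, the amyloid precursor protein gene, had 3 of 14 (14 and 17 other regions, against 7 to 17 with a median of 9), and 1 of them was at a mean percentile of 82.8 with 59 and 67 fragments.

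**Figure D3:**
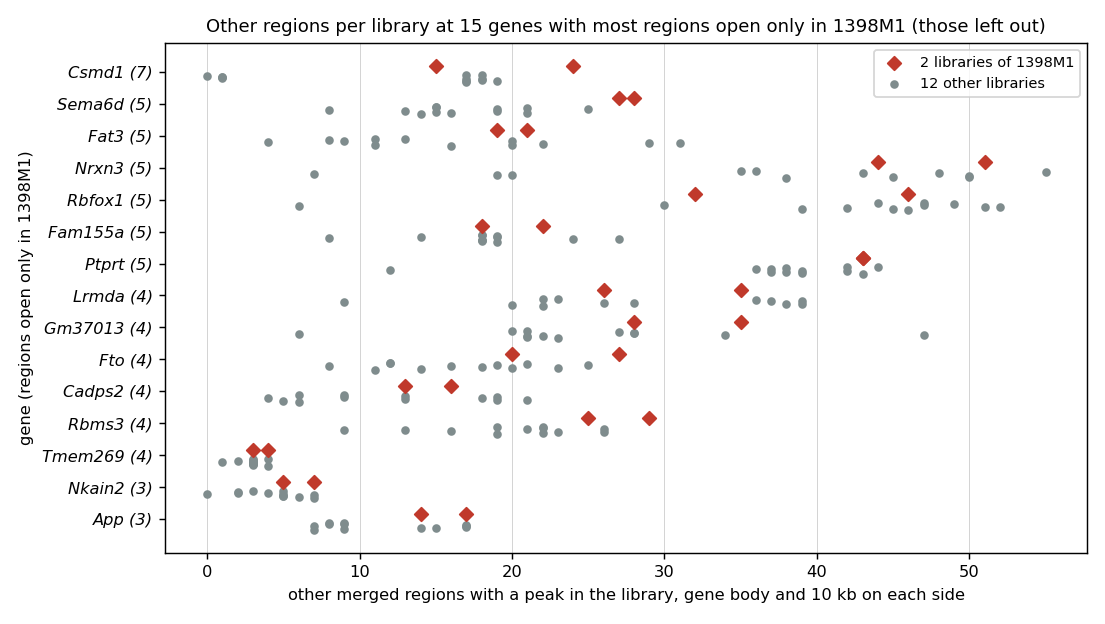
Number of merged regions with a peak in a library (horizontal axis), without the regions open only in 1398M1, at 15 genes with the most of those, whose number follows each gene name; diamonds are the 2 libraries of 1398M1 and dots the 12 others. At Sema6d alone of the 15 do both 1398M1 libraries lie above all others; Nkain2 and App are 2 of 36 genes tied at 3, taken by the rank of their best region.

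Transcription factor genes carried such regions at about the rate of other genes. Of 782, 44 (5.63%) had at least 1, against 4.73% of all protein-coding genes, and 51 of the 2569 open regions at these genes (1.99%) were open only in 1398M1, against 2.70% over all protein-coding genes. Tshz2, a developmental zinc finger factor, and Zbtb38, a factor that binds methylated DNA, had 3 each. The Tshz2 regions lay inside the gene at mean percentiles of 11.7 to 58.1, beside 23 and 31 other regions in the 1398M1 libraries and 8 to 31 in the others. At Zbtb38 a region 473 bp outside the gene on the side of its start (chr9:96732148-96732465) had 17 and 25 fragments over a local background 6.14 and 9.43 times the floor. The 3 regions of Zbtb38 ranked at mean percentiles of 1.54 to 8.12. Ebf2, a factor of neuronal and brown fat differentiation, had 2, beside 12 and 12 other regions with a peak in 1398M1 and 3 to 11 with a median of 7.5 in the others, so that both 1398M1 libraries were above all others. 1 of them, at its lower-coordinate end (chr14:67233288-67233510), had 18 and 21 fragments over a background 4.68 times the floor in replicate 1. Bach2, a repressor in B and T cells, and Mecom, a zinc finger factor of blood stem cells, also had 2 each, and their other regions (17 and 18, and 14 and 21) lay within the range of the other libraries.

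Transcription factor genes with a region within 1 kb of a gene end were E2f1, Atf2, Sox10, Ebf2 and Zbtb38. The region beside E2f1, a cell cycle regulator, was the one that covers the Necab3 start. E2f1 and Necab3 both lie on the minus strand, and the region lay 168 bp beyond the 3′ end of E2f1, not at its start. The region at Atf2, a CREB-related factor, likewise lay 91 bp beyond the 3′ end, with 8 fragments in each library. Sox10, the neural crest and glial factor, had a region 470 bp from its lower-coordinate end (chr15:79153915-79154443) with 16 and 20 fragments. Pou2f3, the factor of tuft-like small cell lung cancer, had none, nor did any of the 20 genes of the neurogenic factor list, which holds Neurod1 and Atoh1.

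Lineage lists are given beside the shares over all protein-coding genes, of which 4.73% had at least 1 such region. Over all 242 list genes, 16 (6.61%) had at least 1 and 18 of 732 open regions (2.46%) were open only in 1398M1, near the 2.70% over all protein-coding genes. Neuroendocrine genes had 3 of 21 (14.3%), with 5 of their 72 open regions (6.94%). They were Syt1, the calcium sensor of vesicle release, with 3 regions, and Snap25, a SNARE protein of vesicle fusion, and Ncam1, an adhesion molecule, with 1 each. Syt1 had 12 and 14 other regions in 1398M1, against 6 to 19 with a median of 13.5, so its total did not stand out. The Ncam1 region (chr9:49534146-49534637) had 19 and 23 fragments at a mean percentile of 65.2, and the gene had 5 and 11 other regions in 1398M1, against 3 to 20.

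Genes of other fates gave single regions. Against 4.73% of all protein-coding genes, the share was 16.7% each in the tuft cell list and the Notch and YAP list. It was 11.1% each in the epithelial and mesenchymal list and the endothelial and fibroblast list, and 6.25% in the hepatocyte list. The lung epithelium, gastrointestinal, lymphoid, muscle and neurogenic lists had none. The lists are short and were not tested. The tuft cell list had 2 of 12, the kinase gene Dclk1 and Gnat3, a G protein subunit of taste signalling. Dclk1 had 17 and 17 other regions in 1398M1, equal to the highest of the 2 to 17 in the others. The list of Notch, YAP and other non-neuroendocrine genes had 3 of 18: Jag1, a Notch ligand, Notch2, a Notch receptor, and Tead1, a partner of YAP. The epithelial and mesenchymal list had 2 of 18, the repressor Zeb2 (6 and 9 other regions in 1398M1, against 0 to 10) and the cadherin Cdh2 (5 and 6, against 2 to 8). The hepatocyte list had 1 of 16, Apob, whose region lay 7035 bp outside the gene. Endothelial and fibroblast genes had 2 of 18, the VEGF receptors Kdr and Flt1. Flt1 had 9 and 10 other regions in 1398M1, above the 4 to 8 of the other libraries, and its 1398M1-only region ranked at a mean percentile of 14.4. Kdr had 1 and 1 other regions, within the 1 to 2 of the other libraries.

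The neural crest, glia and melanocyte list had 2 of 20, Pax7 and Sox10, and the kidney, thyroid and urogenital list had 1 of 14, Esr1. The lung epithelium, gastrointestinal and pancreatic, lymphoid and myeloid, and muscle and skeletal lists had 0 of 20, 0 of 20, 0 of 20 and 0 of 16. The NFI family, the MYC family with Max, and the targeted genes Rb1, Trp53, Rbl2 and Nfib each had 0 of 4. At Nfib, 10 and 11 regions had a peak in the 1398M1 libraries, against 4 to 23 with a median of 16 in the others, and none of the 8 open in both was open only there. At Nfia, 25 and 28 regions had a peak in 1398M1, against 7 to 87 with a median of 28.5, the highest being 87 and 78 in 1399P1. Nfic (5 and 7, against 3 to 12) and Nfix (11 and 13, against 6 to 15) lay within the range of the others. So did Myc (2 and 2, against 1 to 3), Mycn (1 and 1, against 1 to 3), Mycl (5 and 5, against 1 to 5) and Max (3 and 4, against 1 to 5).

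**Figure D4:**
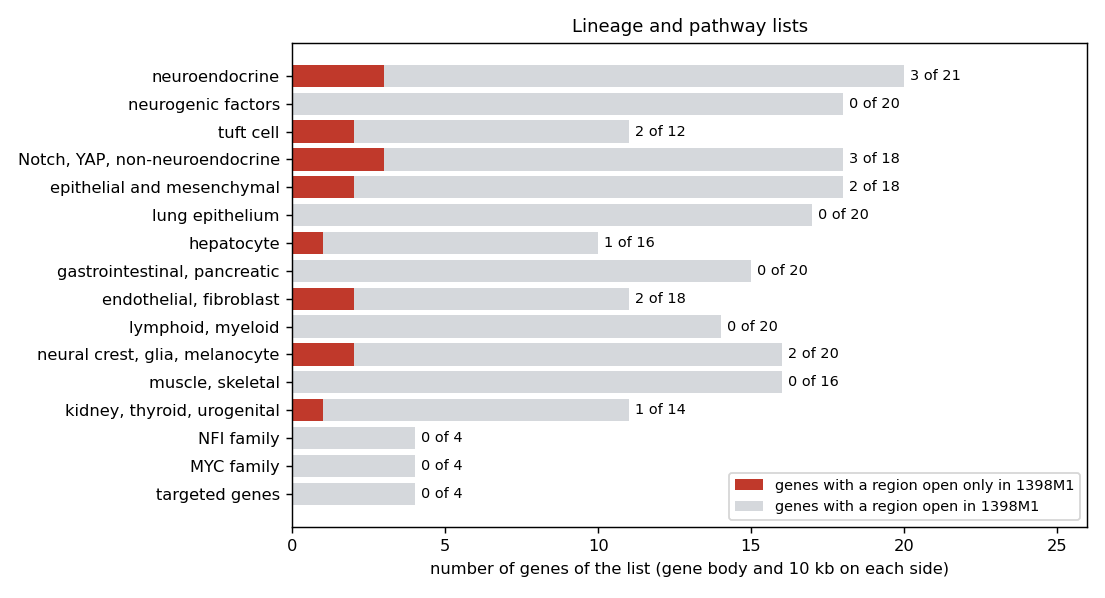
Number of genes (horizontal axis) of each lineage or pathway list with any region open in 1398M1 (grey) and with a region open only in 1398M1 (red); the labels give the red number out of all genes of the list. The neuroendocrine and the Notch, YAP and non-neuroendocrine lists reach 3 genes, and 8 lists have none.

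At gene ends the strongest region overlapped Olfr272, an odorant receptor gene, 188 bp from its start (chr4:52911192-52911604). It had 23 and 27 fragments at a mean percentile of 85.7, and the nearest peak of another line was 5045 bp away. Next after Necab3 came Ago2, the slicing Argonaute of RNA interference, with 21 and 22 fragments, and Zfr, an RNA-binding zinc finger protein, with 12 and 18. Wdcp, Rabl3, Pcdha6, Sh2b2, Bnip3l and Zfp459 completed the 10 highest, at mean percentiles of 55.4 for Wdcp down to 49.0 for Zfp459. Bnip3l encodes a receptor for removal of mitochondria, and Sh2b2 an adaptor of insulin and cytokine receptors.

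The densest cluster stood on a stretch of raised background. Within 128 kb at chr4:119089138-119217223, 14 of the regions lay over Slc2a1, the glucose transporter GLUT1, and its neighbours Zfp691, Ermap, Svbp and Tmem269. Merged regions with a peak there, the 14 included, numbered 31 and 35 in the 1398M1 libraries, against 7 to 14 in the others. The background could be solved at 37 of 43 summits in replicate 1 and 39 of 46 in replicate 2 of 1398M1. It was at least 28.2 times the floor in replicate 1 and 32.8 times in replicate 2 of 1398M1, with medians of 62.3 and 66.5. In the other libraries the medians were 3.55 to 9.45 and the highest summit reached 27.0.

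Just before the stretch, the local background was much lower in 1398M1. The last summit before it had a background of 1.14 and 1.06 times the floor, at 119031118 in replicate 1 and 119040238 in replicate 2. After the stretch, the first summit with a background of at most 10 times the floor was taken, so a low value there follows from that limit. It lay at 119223874 in replicate 1 (1.19 times) and at 119232886 in replicate 2 (8.32 times). The 14 regions had 51 to 156 fragments in replicate 1 and 79 to 214 in replicate 2, but a fold enrichment of 1.49 to 4.21 and 1.40 to 3.79, at mean percentiles of 0.00956 to 10.8. The 4 regions of Tmem269 were among them, the highest of them at a mean percentile of 10.8. A peak list has no copy number or read total, so the part of the raised background in these regions was not tested.

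A second cluster on the same chromosome had 6 regions within 78.6 kb at chr4:121582388-121660984, over the gene models Gm12880 and Gm12887. Background at the summits inside was 21.6 to 39.7 times the floor in replicate 1 of 1398M1 and 24.2 to 44.5 times in replicate 2, and none of the other 12 libraries had a peak within these bounds. The first summit with a background over 10 times the floor lay at 121577010 and 121579504 in 1398M1. In the 4 libraries of 12N1G and N2N1G it lay at 121673014 to 121673104, just past the cluster. In 1399M4 it lay at 121744248 and 121743746. In 1373M1, 1398P2 and 1399P1 no summit beside the cluster had a background over 10 times the floor. Without a peak inside the bounds, the background of the other lines within the cluster itself cannot be read from their lists. The 6 regions had 36 to 94 fragments in replicate 1 and 42 to 117 in replicate 2, at mean percentiles of 0.0947 to 1.34.

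The windows at Fam155a and Adtrp had a lower background. Fam155a held 5 regions within 149 kb. The window at Adtrp, which encodes a hydrolase of fatty acid esters, had 5 within 166 kb, and 3 of them lay in the gene or 10 kb around it. Background is given over each window and 250 kb on either side. In 1398M1 its median was 2.00 and 2.23 times the floor at Fam155a and 1.58 and 1.54 times at Adtrp. The other libraries had 1.27 to 1.86 times at Fam155a and 1.51 to 3.11 times at Adtrp. In the Adtrp window the 5 were all of the regions open in 1398M1. That window had 6 and 7 regions with a peak in 1398M1, the 5 included, against 0 to 7 in the others, where the 4 libraries of 12N1G and N2N1G had 6 or 7 at other places. The last of the 5 windows spanned 132 kb at chr2:116554475-116686219 and held no protein-coding gene. Its background was 2.54 and 1.91 times the floor in 1398M1, against 1.20 to 2.47 in the others, and 1 of its bins of 100 kb, with 3 of its 4 regions, had 4.31 and 2.88 times the median background of the other libraries. It was tied at 4 regions with other windows, among them chr4:122713932-122864073 over Ppt1 and Cap1, where the background was 40.2 and 42.8 times the floor in 1398M1, against 3.88 to 41.5 in the others. Bins of 100 kb with over 2 times the median background of the other libraries in both 1398M1 libraries numbered 312 and held 54 of the 2050 regions, 24 of them on chromosome 4, and without them 1996 remained.

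**Figure D5:**
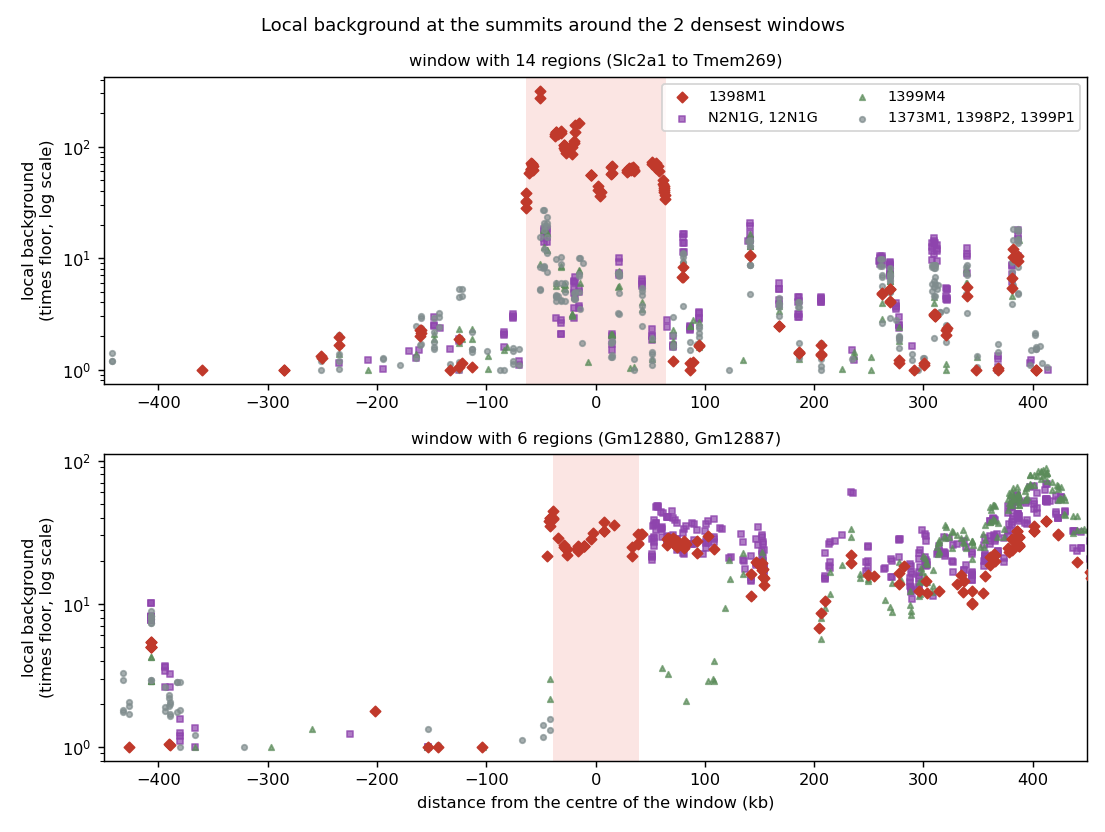
Local background at each summit as a multiple of the library's floor (vertical axis, log scale) by distance in kb from the centre of the 2 densest windows (horizontal axis), with the windows shaded. In the window with 14 regions the solved summits of 1398M1 (37 of 43 and 39 of 46) lie at or above 28.2 times the floor and all others at or below 27.0, and in the window with 6 regions its summits have no counterpart in the other lines, whose raised background begins to the right.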

How the data were processed

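ATAC-seq peak lists of 14 libraries from 7 mouse lines were used, 2 libraries a line. Whether a line's pair of libraries comes from separate cultures is not stated in the labels. The submitters' processing notes name cutadapt 2.10, Bowtie2, Picard, SAMtools and MACS2 and the mouse build GRCm38, without roles or settings. Of the 14 deposited lists, 10 carry the name of the human build GRCh38. All were read as GRCm38: of their peaks, 17.4% to 32.6% lay within 1 kb of a GRCm38 gene start, against 18.8% to 20.3% in the 4 named for GRCm38. Peaks were called per library, as the deposited lists show. The fold enrichment at each summit is a ratio to local background in the deposited lists, with a pseudocount of 1 on both sides. Significance of each peak is given as −log10 p and, after adjustment for the number of tests, −log10 q, both as deposited by the authors, and every q passes 0.05. Read totals, signal tracks and sequence outside promoter windows were not used here.

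From these values the fragments at each summit and the local background were solved, assuming a Poisson p-value. This worked at 1192085 of 1193510 summits, and 99.4% of the solved counts were whole within 0.02. The floor is the lowest background of a library. Regions, gene positions and motifs were computed with Python 3.11.15, numpy 2.4.6, pandas 2.3.3 and scipy 1.17.1, and the steps were tested on simulated data. Genes and their ends come from RefSeq (GRCm38.p6), with gene windows reaching 10 kb beyond the gene and gene ends 1 kb. Background stretches were looked for in bins of 1 Mb and 100 kb.

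Named by rule were the 15 genes with the most regions (ties by the percentile of their best region), transcription factor genes with 3 or more regions or 1 at a gene end, list genes with 2 or more or 1 at an end, the 10 highest ranked regions overall and at gene ends, the 5 densest windows of 200 kb, and the targeted, NFI and MYC genes. Other genes were chosen after their values were seen: those of the printed promoters, Irx3, Bach2, Mecom and list genes with 1 region. Members and lists were chosen with earlier results of these data known. Alternatives were stricter q, equal numbers of peaks, other merging and gene windows, and leaving out libraries, lines or raised background.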

Additional observations from a re-analysis of the deposited data

How the results depend on the processing

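The 2050 regions, 2.73% at a gene end, 47.6% inside genes and 1022 genes changed by at most 1.5 times (counts) or stayed within their binomial intervals (shares) under q of 0.01 or 0.001, merging at 500 bp, 50% reciprocal overlap, leaving out any other line, and leaving out 100 kb bins of raised background, the last chosen after seeing the data. Leaving out another line gave 2161 to 3019 regions and 1063 to 1458 genes, the highest without 1373M1. With equal numbers of peaks per library there were 1122 regions, 4.55% at a gene end, 49.8% inside genes, and 657 genes. Without 1 Mb bins of raised background there were 1275 regions, 1.65%, 44.2% and 500 genes. The cause of either change was not tested. These bins had a background over 2 times the floor in both 1398M1 libraries, whatever the other lines had there. They held 775 of the 2050 regions (37.8%), against 58.2% of all regions open in 1398M1 and 70.4% of those open in all lines. Leaving out 1 library gave 2057 to 6007 regions, 2.58% to 3.61% at a gene end, 47.2% to 49.1% inside genes, and 1024 to 2671 genes. The highest counts came without replicate 1 of 1398M1, by construction, since 1 library then decides presence. A gene end of 2.5 kb gave 5.71%, and windows of 50 kb gave 1933 protein-coding genes with at least 1 such region, by their width. Of the 2050 regions, 127 were kept with equal numbers of peaks and 1636 at a q of 0.001. Of 61 named genes with a region, 24 kept at least 1 with equal numbers of peaks and 34 without the 1 Mb bins. No paired analysis was possible because the result comes from no test. The lists hold no reads, so accessibility below the calling threshold of a library was not measured.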

Other observations

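Among families of transcription factor genes, bZIP genes had regions open only in 1398M1 at 6 of 51 (Atf2, Bach2, Creb5, Batf, Nfil3 and Atf7), and the TEAD and TFAP2 group at 3 of 14 (Tfap2d, Grhl3 and Tead1). The bHLH family had 2 of 100, Npas2 and Npas3, both PAS-domain genes related to clock and neuronal factors. Developmental zinc finger genes had 7 of 119 and nuclear receptors 3 of 49 (Esrrg, Esr1 and Ppard). The GATA, LIM homeodomain, POU, sine oculis homeobox and T-box families had none, nor did the RUNX, STAT, IRF and REL group. These families were not tested against each other, and over all 782 transcription factor genes the share was 5.63%.

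By chromosome, the share of regions open in 1398M1 that were open only there was lowest on chromosome 11 (79 of 3770) and highest on chromosome 16 (91 of 2025). Hao1, a liver oxidase gene chosen after its values were seen, had a region 656 bp outside the gene at a mean percentile of 35.9, with 10 and 11 fragments in the 1398M1 libraries. Apart from it, 1 and 1 merged regions had a peak at Hao1 in 1398M1, against 0 to 2 in the other libraries.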
